A study of Homo sapiens with 18 samples.

Results

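The MAF transcription factors, their cap'n'collar partners NFE2 and NFE2L2 (NRF2), and 2 genes that NRF2 activates, HMOX1 and NQO1, were followed in 3 human myeloid cell lines treated with a phorbol ester. The 8 genes were chosen by name: MAF, MAFF, MAFG, MAFK, NFE2, NFE2L2, HMOX1 and NQO1. All 8 were on the array, with 86 of its 287329 probe sets (short groups of probes, several to a gene), and all 8 were among the 16267 genes tested. A gene value is the mean of the log2 signals of the probe sets that the platform annotation gives to that gene alone.

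The MAF proteins are basic leucine zipper factors. MAF itself is a large MAF, with a domain that activates transcription, and is known as a regulator of macrophage genes. The small MAFs, MAFF, MAFG and MAFK, lack that domain and act as partners: they pair with NFE2, NRF2 or the BACH repressors on antioxidant and MAF response elements. KEAP1 holds NRF2 down by marking it for degradation, so NRF2 is known to be governed largely at the level of its protein, which these arrays do not measure. NFE2 is best known from megakaryocytes and erythroid cells, and HMOX1 and NQO1 encode a haem-degrading and a quinone-reducing enzyme.

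HL60, THP-1 and U937 are established cell lines with myeloid features. HL60 was taken from a promyelocytic type of leukaemia, and THP-1 and U937 are used as models of monocytes. Each line was grown in RPMI1640 with fetal calf serum and given PMA (phorbol 12-myristate 13-acetate, 30 nM), which activates protein kinase C and is used to drive such cells towards macrophages, or its vehicle, dimethyl sulphoxide (DMSO) at 1/1000 of the volume, for 3 days. Total RNA was hybridised to human exon arrays, giving 18 arrays in 6 groups of 3: DMSO and PMA in each of the 3 lines. The labels number the arrays 1 to 3 within a group but do not say that these were separate cultures; each p-value rests on the array-to-array spread alone, which may be technical. Since these are whole cultures, more RNA per cell and more cells with the RNA cannot be told apart.

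The array medians ran from 6.18 to 6.95 log2 units, and arrays of a group correlated at 0.93 to 0.98 over probe sets. The U937 PMA array numbered 2 stood apart: it had the lowest median and 83228 distinct values, against 214471 to 220516 on the others. The pair of U937 arrays numbered 2 also shared at most 5 exactly tied values with any other array, where other arrays of one line shared 39 to 116. The PMA effect in U937 is therefore also given without that pair. Arrays of different lines shared at most 7 such values, and levels set across lines may carry a difference in normalization. Among myeloid markers, CD33 read 8.10 to 8.75 in the 6 group means. The granule gene MPO read 12.60 in HL60 with DMSO, but 5.87 in THP-1 and 5.17 in U937. Of the 9 myeloid markers tested, 2 were called higher with PMA and 3 lower in HL60, 2 and 4 in THP-1, and 1 and 0 in U937. Over all genes 23%, 22.5% and 22% were called. The means of the 9 epithelial and fibroblast markers ran from 2.44 to 7.04, and none of the 9 was called in any line. Of the other markers, NKG7 (a gene of natural killer cells) reached 11.30 in U937 with DMSO, and in the T and NK list of 8 it fell in HL60 and THP-1 while GNLY rose in THP-1. Of the 4 B cell markers, CD22 rose in THP-1 by 3.80 and in U937 by 1.68, CD79A rose in HL60 by 1.00 and PAX5 fell in U937 by 0.96.

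Promoter sequence was at hand in the RefSeq table (GRCh38.p14) for 5 of the 8 genes, in 7 windows of 250 bases before an annotated start: MAF, MAFF (2 starts), MAFG, NFE2L2 (2 starts) and NQO1. The MAFF windows are shown because MAFF was called higher in all 3 lines, and those of MAF and NQO1 because these were called higher in HL60 and THP-1 but not in U937. Capitals mark motif matches. The antioxidant response element core (TGACNNNGC, searched on both strands) stood in 10.9% of the 35116 windows of the table. The E-box CACGTG, a site for basic helix-loop-helix factors, stood in 6.34%, and the AP-1 core TGANTCA in 6.57%. The palindromic MAF recognition element, which is longer and contains the AP-1 core, stood in 0 windows.
MAFF, chr22:38201744-38201993, plus strand: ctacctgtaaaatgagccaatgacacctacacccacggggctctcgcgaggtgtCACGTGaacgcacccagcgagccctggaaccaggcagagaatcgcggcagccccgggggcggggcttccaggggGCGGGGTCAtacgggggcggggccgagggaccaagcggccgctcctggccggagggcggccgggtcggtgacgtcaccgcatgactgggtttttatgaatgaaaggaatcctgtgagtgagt
MAFF, chr22:38202770-38203019, plus strand: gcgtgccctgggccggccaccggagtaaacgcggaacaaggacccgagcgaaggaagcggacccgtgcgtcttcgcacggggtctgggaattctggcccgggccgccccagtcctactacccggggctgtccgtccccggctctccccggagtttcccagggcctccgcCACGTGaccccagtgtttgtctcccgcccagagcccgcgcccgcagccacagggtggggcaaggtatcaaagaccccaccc
MAF, chr16:79600738-79600987, minus strand: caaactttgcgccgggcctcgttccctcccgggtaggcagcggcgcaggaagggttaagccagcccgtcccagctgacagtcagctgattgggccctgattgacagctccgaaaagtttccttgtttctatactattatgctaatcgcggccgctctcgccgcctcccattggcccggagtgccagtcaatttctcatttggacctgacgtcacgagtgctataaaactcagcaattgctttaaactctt
NQO1, chr16:69726561-69726810, minus strand: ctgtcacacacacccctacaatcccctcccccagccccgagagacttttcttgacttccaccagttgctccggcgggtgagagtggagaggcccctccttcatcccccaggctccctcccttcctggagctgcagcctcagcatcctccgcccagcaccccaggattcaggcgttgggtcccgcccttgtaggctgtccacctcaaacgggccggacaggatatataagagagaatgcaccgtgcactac

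The first MAFF window held 1 match to the antioxidant response element core, read on the minus strand as GCGGGGTCA at bases -122 to -114 from the start, and an E-box at -196 to -191. The second MAFF window held an E-box at -81 to -76. The MAFG window (chr17:81927736-81927985, minus strand) held an E-box at -16 to -11. None of these letters stood in the windows of MAF, NFE2L2 and NQO1. A match is a description of the letters, not of a bound site, and a missing match says only that the letters are not in these 250 bases.

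Of the 8 genes, 5 were called changed by PMA in HL60, 5 in THP-1 and 2 in U937. In HL60 4 of the 8 genes rose (MAF, MAFF, HMOX1, NQO1), 1 fell (NFE2) and 3 were not called (MAFG, MAFK, NFE2L2); over all genes, 23% were called, 12.3% higher and 10.7% lower. In THP-1 the same 4 rose, NFE2 fell and 3 were not called, against 22.5% of all genes called, 9.37% higher and 13.2% lower. In U937 only MAFF rose and NFE2 fell, and 6 were not called, against 22% of all genes, 5.5% higher and 16.5% lower. Groups that did not overlap were found for 46.1% of all genes in HL60, 43% in THP-1 and 25.4% in U937; all PMA arrays lay above in 29.7%, 23.2% and 5.86%, and below in 16.4%, 19.8% and 19.5%. Calls are at an adjusted p under 0.05 in limma with Benjamini-Hochberg adjustment over the 16267 genes. The median change of the 8 was 0.75 log2 units in HL60, 0.54 in THP-1 and 0.18 in U937, beside 0.13, 0.04 and -0.07 over all genes. With the array numbers as pairs in the fit, the same 5, 5 and 2 genes were called, while the share of all genes called rose to 34.3%, 34.7% and 33.2%.

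**Figure D1:**
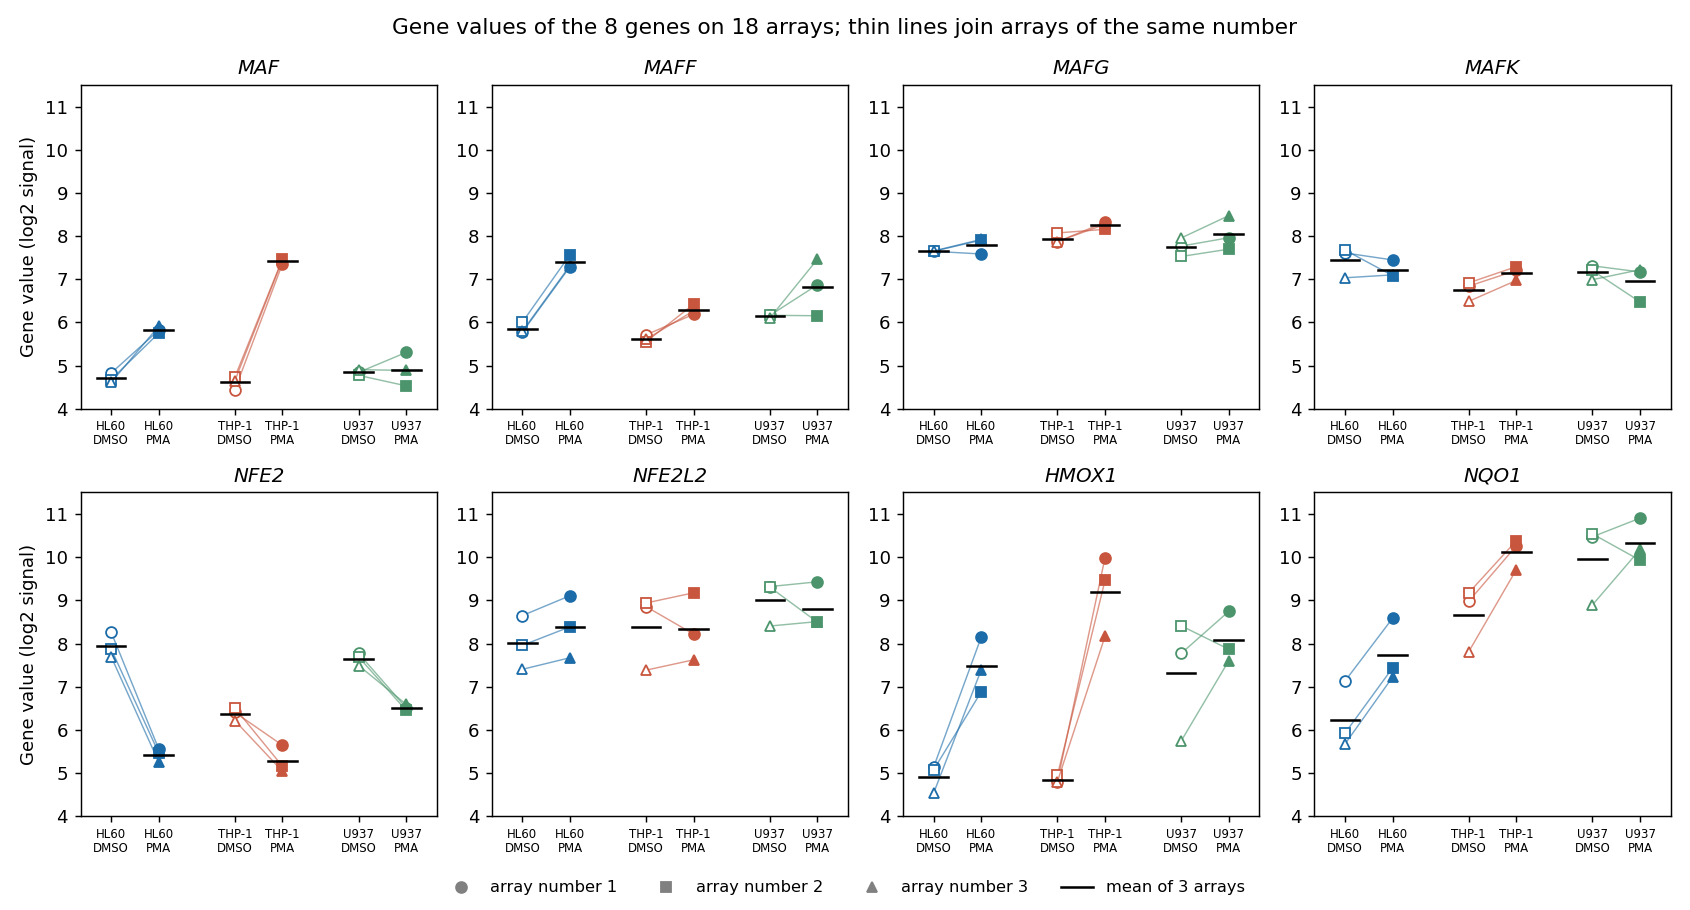
Gene values (log2 signal, vertical axis) of the 8 genes on all 18 arrays, by line and agent; open symbols are DMSO arrays, filled ones PMA arrays, the shape gives the array number, thin lines join arrays of the same number and black bars are means of 3. MAF and HMOX1 rise from near 5 in HL60 and THP-1, NFE2 falls in every line, and in NFE2L2 and NQO1 the array numbered 3 lies lowest in 5 of the 6 groups.

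MAF, the large MAF, rose steeply in THP-1, less in HL60 and was not called in U937. In THP-1 the DMSO arrays read 4.44, 4.73 and 4.65, and the PMA arrays 7.36, 7.47 and 7.45. Every PMA array lay far above every DMSO array. The change of 2.82 ± 0.17 (SE, n = 3 and 3) is 7.05-fold on the linear scale (limma, adjusted p = 4.62e-09). In HL60 MAF read 4.82, 4.67 and 4.61 with DMSO and 5.82, 5.75 and 5.91 with PMA. All PMA arrays were again above all DMSO arrays, and the change was 1.12 ± 0.17 (2.18-fold, adjusted p = 9.05e-05). In U937 the DMSO arrays read 4.84, 4.77 and 4.90 and the PMA arrays 5.30, 4.53 and 4.89. These overlap, and the change of 0.07 had a 95% interval of -0.30 to 0.44 (adjusted p = 0.916); it was 0.22 without the pair numbered 2.

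The response of MAF differed between all 3 lines. The effect in HL60 minus that in THP-1 was -1.69 ± 0.25 (limma interaction, adjusted p = 0.000252). THP-1 exceeded U937 by 2.75 ± 0.25 (adjusted p = 3.04e-06). HL60 exceeded U937 by 1.06 ± 0.25 (adjusted p = 0.0117), a call that was lost when the median of the probe sets replaced their mean (1.27, adjusted p = 0.134). In each of these 3 tests of a difference, 2 of the 8 genes were called. For HL60 minus THP-1, 7.78% of all genes were called (4.88% higher, 2.9% lower), for THP-1 minus U937 4.76% (3.14% and 1.62%) and for HL60 minus U937 7.73% (5.98% and 1.75%). In order of mean, MAF stood at 4.61 in THP-1 with DMSO, 4.70 in HL60 with DMSO, 4.84 and 4.91 in U937 with DMSO and PMA, 5.83 in HL60 with PMA and 7.42 in THP-1 with PMA. The 3 DMSO levels were not called different, and only the HL60 and THP-1 PMA groups stood clear of all the others.

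Not all parts of the MAF signal moved alike. Of the 16 MAF probe sets, 4 read above 7 with DMSO in every line and 12 read below; this split was made after the values were seen and has no test. In THP-1 the means of the 4 bright probe sets changed by 0.31 to 0.74, and those of the other 12 by 0.73 to 6.19 (median 3.77). In HL60 the bright ones changed by 0.05 to 0.64 and the others by 0.41 to 3.56 (median 1.33). All 16 had higher means with PMA in both lines, while in U937 10 were higher and 6 lower, between -0.71 and 0.61. Which transcripts these probe sets read was not tested.

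Among the 9 MAF probe sets whose mean over all arrays passed the filter of the exon usage test (limma diffSplice, which sets each probe set's change against that of the other tested probe sets of its gene), 3701013 changed most in HL60 and THP-1. With DMSO it read 5.20, 4.06 and 2.20 in HL60 and 3.71, 4.66 and 5.11 in THP-1. With PMA it read 7.27, 7.39 and 7.46 in HL60 and 9.70, 10.08 and 10.71 in THP-1. In U937 it read 3.53 to 4.15 in all 6 arrays. Its mean passed the filter through the PMA arrays of HL60 and THP-1, where it is high, so its excess over the other tested ones is given with no p: 2.81 in HL60 and 4.25 in THP-1. With the 7 dim MAF probe sets kept in, these were 2.59 and 3.04, and in THP-1 the dim 3701007 changed by more (6.19, against 5.67 for 3701013; excess 3.59). In THP-1 the bright 3701016 lay below its gene (excess -1.78, adjusted p = 0.00810; -2.67 without the filter), a call lost without DMSO array 1 or PMA array 3 (adjusted p = 0.0501 and 0.0791). Probe set 3701014 had DMSO means of 5.05 in HL60, 4.77 in THP-1 and 5.10 in U937, below the filter (5.17). It too passed through the PMA arrays of HL60 and THP-1 (means 6.39 and 8.02). Its excess in THP-1 (1.53) is therefore also given with no p. It was not called without the filter (0.47), by splicing index (adjusted p = 0.143) or in 5 of the 6 fits that left out 1 THP-1 array. Over all tested probe sets, 2.78% were called in HL60 (1.49% above their gene, 1.29% below), 1.5% in THP-1 (0.862% and 0.636%) and 1.01% in U937 (0.544% above).

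**Figure D2:**
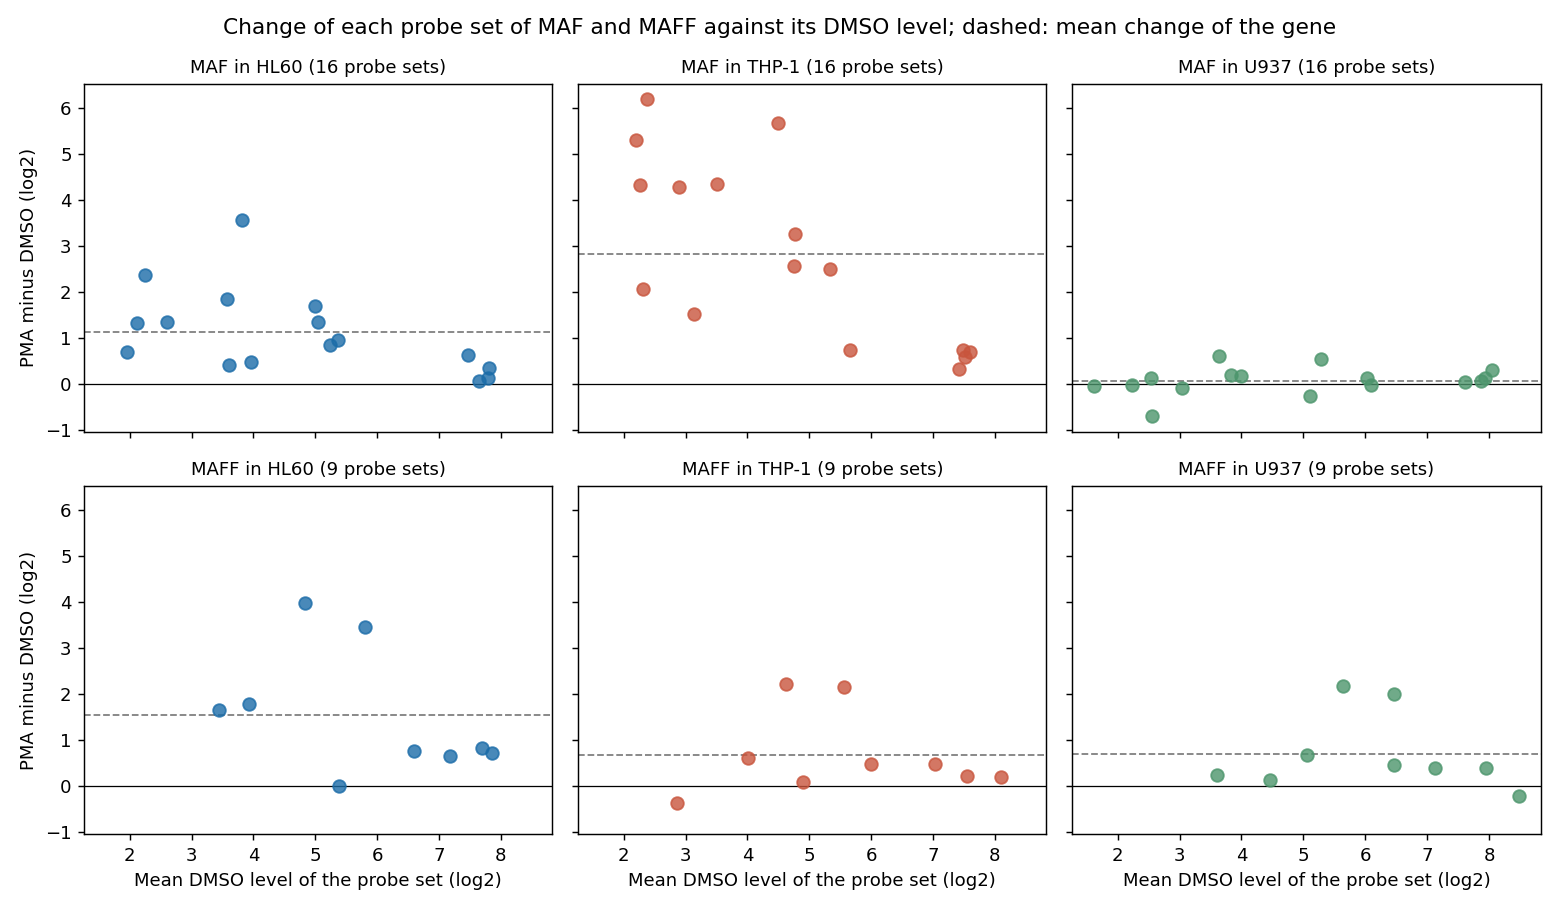
Change of each probe set (PMA minus DMSO, log2, vertical axis) against its mean DMSO level (log2, horizontal axis) for MAF (top, 16 probe sets) and MAFF (bottom, 9), in each line; the dashed line is the gene's mean change. The 4 MAF probe sets above 7 lie at 0.05 to 0.64 in HL60, 0.31 to 0.74 in THP-1 and 0.03 to 0.29 in U937, and 2 MAFF probe sets lie apart from the other 7 in every line, at 3.45 and 3.98 in HL60.

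MAFF, a small MAF, was the one member called higher in all 3 lines. In HL60 it read 5.77, 6.004 and 5.80 with DMSO and 7.29, 7.56 and 7.31 with PMA. The groups lay well apart, and the change was 1.53 ± 0.23 (2.89-fold, limma, adjusted p = 6.68e-05), nearly equal in the 3 same-numbered pairs (1.52 to 1.56). In THP-1 it went from 5.71, 5.55 and 5.61 to 6.19, 6.42 and 6.27, with all PMA arrays higher. That change was 0.67 ± 0.23 (1.59-fold, adjusted p = 0.0462), and leaving out any one of the 6 THP-1 arrays ended the call (adjusted p 0.0796 to 0.139).

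In U937 MAFF read 6.16, 6.16 and 6.10 with DMSO and 6.87, 6.15 and 7.46 with PMA. PMA arrays 1 and 3 were higher and array 2 lay within the DMSO values. The change was 0.69 ± 0.23 (adjusted p = 0.0404), and 1.04 without the pair numbered 2 (adjusted p = 0.00121). The call ended when U937 was fitted alone (adjusted p = 0.156) and without each of 5 of its 6 arrays, all but PMA array 2 (adjusted p 0.0873 to 0.198); without PMA array 3 the change was 0.37. The difference in effect of HL60 from THP-1 (0.86) and from U937 (0.84) was not called (adjusted p = 0.138 and 0.15); the intervals were 0.18 to 1.55 and 0.15 to 1.53. The first was called after quantile normalization (0.78, adjusted p = 0.0200), after median centring (0.73, adjusted p = 0.0388) and without the pair numbered 2 (adjusted p = 0.0139), and the second without U937 PMA array 3 (1.16, adjusted p = 0.00682); without the pair the second was 0.49 (adjusted p = 0.301). In order of mean, MAFF stood at 5.62, 5.86 and 6.14 in THP-1, HL60 and U937 with DMSO, 6.29 in THP-1, 6.83 in U937 and 7.39 in HL60 with PMA, and the U937 PMA arrays overlapped those of both other PMA groups. With all arrays no DMSO difference of MAFF between lines was called. THP-1 minus U937 with DMSO (-0.52) was called without the pair (-0.51, adjusted p = 0.0255), without U937 PMA array 2 (adjusted p = 0.0115) and without U937 PMA array 3 (adjusted p = 0.0326).

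As with MAF, a few MAFF probe sets changed more than the rest of the gene. Probe set 3945242 read 4.24, 5.44 and 4.81 with DMSO and 8.83, 9.03 and 8.56 with PMA in HL60. Its neighbour 3945243 read 5.36, 5.64 and 6.41, then 9.55, 9.58 and 8.63. In both, every PMA array lay above every DMSO array. The excess of 3945242 over its gene was 2.91 in HL60, 1.61 in THP-1 and 1.55 in U937. Its DMSO means were 4.83, 4.63 and 5.65, the first 2 below the filter (5.17). It passed with the help of its PMA arrays, where it is high, so these are given with no p. Probe set 3945243 was called above its gene in HL60 (2.30), THP-1 (1.55) and U937 (1.36, adjusted p = 0.0455). With no filter both probe sets were called in HL60 and THP-1. Neither was then called in U937 (1.66 and 1.47, adjusted p = 0.0511 and 0.126). Their own changes were 3.98 and 3.45 in HL60, 2.20 and 2.15 in THP-1, and 2.16 and 2.00 in U937. The other 7 probe sets changed by 0.01 to 1.78 in HL60, -0.37 to 0.60 in THP-1 and -0.22 to 0.67 in U937. Probe set 3945230 was called below its gene in HL60 (excess -1.72, adjusted p = 0.00116), staying at 5.09 to 5.82 with DMSO and 5.12 to 5.65 with PMA. Its mean over all arrays (5.24) was just above the filter, and the probe sets it was set against included 3945242. With no filter diffSplice still called it in HL60 (-1.72, adjusted p = 0.0163).

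Several of the exon usage calls in THP-1 and U937 rested on single arrays. The counts of calls include the probe sets that passed the filter through their PMA arrays. Of the 5 calls in THP-1, 1 was left without DMSO array 1 and 3 without PMA array 2 or 3. Of the 2 in U937, both calls on MAFF, 1 was left without DMSO array 1 or 2 or PMA array 2 and none without DMSO array 3 or PMA array 1. Probe set 3945243 was the one lost without PMA array 2 (adjusted p = 0.133), and it was lost without both arrays numbered 2 as well (adjusted p = 0.344). The 4 calls in HL60 numbered 4 without any one array. With all arrays and no pairing, no probe set of MAFG, MAFK, NFE2, NFE2L2, HMOX1 or NQO1 was called in any line by limma diffSplice. With the array numbers as pairs 2 probe sets of NFE2 were called in HL60 and 1 in THP-1. Without pairing, 1 probe set of MAFG was called in U937 without PMA array 2 and without both arrays numbered 2. There 1 of MAFK was called without PMA array 3.

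MAFG and MAFK, the other small MAFs, were not called in any line. MAFG read 7.65 on each DMSO array of HL60 and 7.58, 7.90 and 7.92 with PMA. In THP-1 it read 7.87, 8.07 and 7.87 and then 8.32, 8.16 and 8.27; in U937 7.77, 7.53 and 7.95 and then 7.96, 7.70 and 8.47. The PMA arrays all lay above the DMSO arrays in THP-1, and the groups overlapped in HL60 and U937. The changes were 0.15 (95% interval -0.24 to 0.55), 0.31 (-0.08 to 0.71) and 0.29 (-0.10 to 0.69), and none was called. With quantile normalization the THP-1 and U937 changes became 0.42 and 0.54 and were called (adjusted p = 0.0381 and 0.0109); median centring gave 0.40 and 0.53, also called. Without the pair numbered 2 the U937 change was 0.36, not called. In order of mean, MAFG stood at 7.65 and 7.75 in HL60 and U937 with DMSO, 7.80 in HL60 with PMA, 7.94 in THP-1 with DMSO, and 8.04 and 8.25 in U937 and THP-1 with PMA; each group's range overlapped its neighbours'. No DMSO difference of MAFG between lines was called, except THP-1 minus U937 after quantile normalization (0.44, adjusted p = 0.0345) and median centring (0.42, adjusted p = 0.0383).

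MAFK showed no common direction. It read 7.61, 7.68 and 7.03 with DMSO and 7.45, 7.08 and 7.10 with PMA in HL60. In THP-1 it read 6.84, 6.91 and 6.49 and then 7.20, 7.29 and 6.97, again without overlap; all 10 probe sets had higher means with PMA there. In U937 it read 7.31, 7.20 and 6.99 and then 7.17, 6.47 and 7.22. The changes were -0.23 (-0.70 to 0.24), 0.41 (-0.06 to 0.88) and -0.21 (-0.68 to 0.26), none called; without the pair numbered 2 the direction in U937 turned (0.04, adjusted p = 0.925). The THP-1 change was called with quantile normalization (0.50, adjusted p = 0.0155) and with median centring (0.50, adjusted p = 0.0209). With DMSO, MAFK was 0.69 higher in HL60 than in THP-1 (adjusted p = 0.0414), a call lost in 10 of 16 alternatives (adjusted p up to 0.205). HL60 minus U937 with DMSO was called only after quantile normalization (0.59, adjusted p = 0.00735) and median centring (0.60, adjusted p = 0.00857). The effect in HL60 minus that in THP-1 was -0.64 and not called (adjusted p = 0.316), but was called after quantile normalization (-0.75, adjusted p = 0.0229) and median centring (-0.77, adjusted p = 0.0253).

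NFE2 fell in all 3 lines, the one member to do so. In HL60 the DMSO arrays read 8.27, 7.88 and 7.70 and the PMA arrays 5.56, 5.47 and 5.26. Every PMA array was over 2 log2 units below every DMSO array, and the change was -2.52 ± 0.19 (5.74-fold lower, limma, adjusted p = 1.59e-08). In THP-1 it went from 6.41, 6.51 and 6.22 to 5.64, 5.16 and 5.04, and in U937 from 7.77, 7.69 and 7.49 to 6.51, 6.45 and 6.59. Neither line showed overlap. The changes were -1.10 ± 0.19 (adjusted p = 0.000307) and -1.13 ± 0.19 (adjusted p = 0.000253), the latter -1.08 without the pair numbered 2 (adjusted p = 0.00370).

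All 6 NFE2 probe sets had lower means with PMA in each line: the changes ran from -3.38 to -1.46 in HL60, -1.59 to -0.18 in THP-1 and -1.37 to -0.62 in U937. The fall was deeper in HL60 than in THP-1 (difference of effects -1.42 ± 0.26, adjusted p = 0.00204) and than in U937 (-1.39 ± 0.26, adjusted p = 0.00244). The THP-1 and U937 effects differed by 0.04 (interval -0.52 to 0.60, adjusted p = 0.978). In order, NFE2 stood at 5.28 in THP-1 and 5.43 in HL60 with PMA, 6.38 in THP-1 with DMSO, 6.52 in U937 with PMA, and 7.65 and 7.95 in U937 and HL60 with DMSO. The first pair, the middle pair and the last pair each overlapped in their arrays, and the 3 pairs did not overlap one another. With DMSO, HL60 minus THP-1 was 1.57 (adjusted p = 7.75e-06) and THP-1 minus U937 was -1.27 (adjusted p = 5.60e-05), while HL60 and U937 were not called different (0.30), except after quantile normalization and median centring (0.62 in each, adjusted p = 0.0188 and 0.0206). For DMSO levels, 3 of the 8 genes were called between HL60 and THP-1 (16.6% of all genes, 5.8% higher in HL60 and 10.8% lower), 2 between HL60 and U937 (22.8%, 3.86% and 19%) and 2 between THP-1 and U937 (26.2%, 7.54% and 18.7%).

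NFE2L2, the gene of NRF2, was not called in any line, and its arrays scattered widely. It read 8.65, 7.96 and 7.40 with DMSO and 9.11, 8.39 and 7.67 with PMA in HL60. In THP-1 it read 8.86, 8.94 and 7.38 and then 8.22, 9.18 and 7.62; in U937 9.32, 9.31 and 8.41 and then 9.43, 8.49 and 8.51. The groups overlapped in every line, and the SD within a group was 0.52 to 0.87. The changes were 0.39 (-0.64 to 1.41), -0.05 (-1.08 to 0.97) and -0.20 (-1.23 to 0.83); without the pair numbered 2 the direction in U937 turned (0.11, adjusted p = 0.937). With the array numbers as pairs the interval in HL60 narrowed to -0.06 to 0.83, and the gene was still not called (adjusted p = 0.176). The group means were lowest in HL60 with DMSO and highest in U937 with DMSO, at 9.01; all 6 groups overlapped, and no DMSO difference between lines was called.

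The scatter of NFE2L2 followed the array number. The array numbered 3 was the lowest of its group in 5 of 6 groups; in U937 with PMA it was array 2. NQO1 and NFE2 had the same lowest array as NFE2L2 in 6 of 6 groups, MAFK in 5 and HMOX1 in 4. MAF and MAFF did so in 2 groups and MAFG in 1. The lowest array of NFE2L2 also had the lowest median over all probe sets in both HL60 groups, in THP-1 with DMSO and in U937 with PMA. In THP-1 with PMA and U937 with DMSO it did not. How many of all genes have the same lowest arrays was not counted, and what the arrays of one number share was not tested. Within same-numbered pairs, NFE2L2 differed by 0.46, 0.43 and 0.27 in HL60, -0.64, 0.24 and 0.24 in THP-1 and 0.11, -0.81 and 0.10 in U937.

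**Figure D3:**
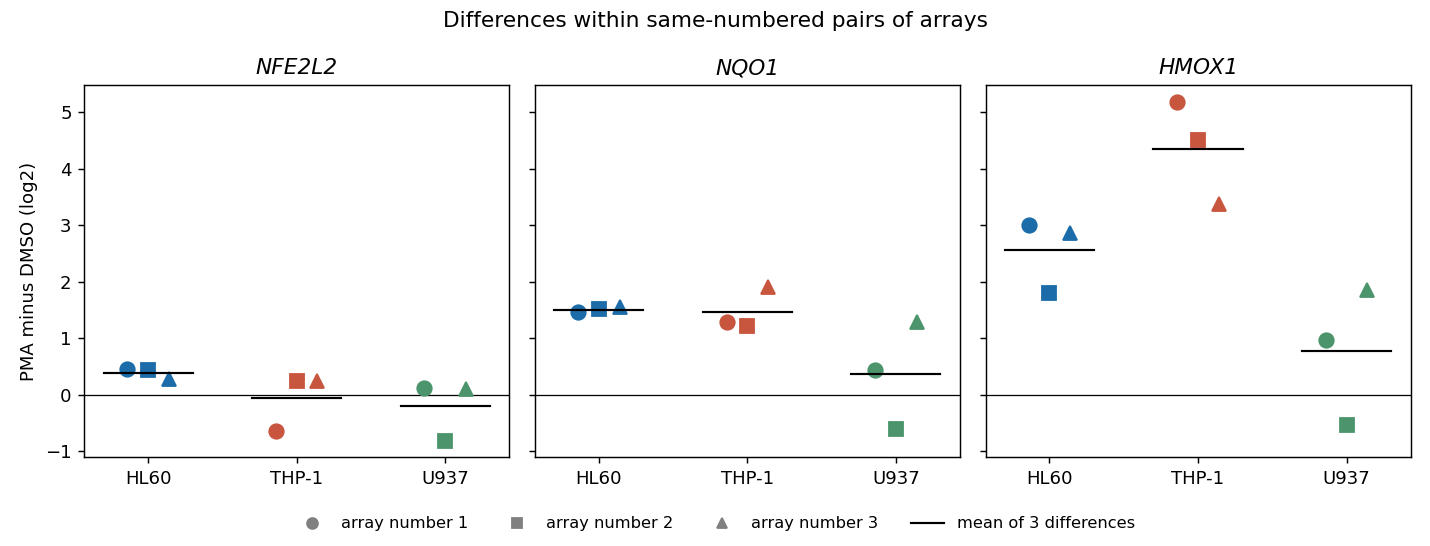
PMA minus DMSO (log2, vertical axis) within each same-numbered pair of arrays for NFE2L2, NQO1 and HMOX1 in the 3 lines; the shape gives the array number and the bar the mean of 3. NQO1 differs by 1.46 to 1.55 in HL60, and the U937 pair numbered 2 is the only one below 0 for NQO1 and HMOX1.

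HMOX1, which encodes haem oxygenase 1, had the largest rise of the 8 genes in HL60 and in THP-1. In THP-1 the DMSO arrays read 4.80, 4.95 and 4.80 and the PMA arrays 9.99, 9.46 and 8.17. The groups lay over 3 log2 units apart. The change of 4.36 ± 0.55 (20.5-fold, limma, adjusted p = 1.49e-05) ranked 29 by size among the 16267 genes. In HL60 HMOX1 went from 5.14, 5.08 and 4.54 to 8.15, 6.88 and 7.39. All PMA arrays were higher, by 2.56 ± 0.55 in the mean (5.89-fold, adjusted p = 0.00193). All 6 probe sets had higher means with PMA in both lines, by 1.98 to 3.74 in HL60 and 3.27 to 5.28 in THP-1.

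In U937 HMOX1 read 7.77, 8.41 and 5.74 with DMSO and 8.75, 7.87 and 7.60 with PMA. These overlap, DMSO array 3 being low, and the change of 0.76 (-0.40 to 1.93) was not called (adjusted p = 0.432). Without the pair numbered 2 it was 1.42, called with the array numbers as pairs (adjusted p = 0.0163) and not without pairing (0.178). With DMSO, U937 was higher than both other lines: HL60 minus U937 was -2.39 ± 0.55 (adjusted p = 0.00387) and THP-1 minus U937 was -2.46 ± 0.55 (adjusted p = 0.00278). Without the pair these were -1.84 and -1.91, still called. HL60 and THP-1 were not called different (0.07, interval -1.10 to 1.23). Over all genes, the median of HL60 minus U937 with DMSO was -0.23 and that of THP-1 minus U937 was -0.31.

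The effect on HMOX1 was 3.59 ± 0.78 larger in THP-1 than in U937 (adjusted p = 0.00950); without the pair numbered 2 it was 2.94 and not called (adjusted p = 0.0643). The effect in HL60 minus that in THP-1 was -1.80, and minus that in U937 1.79; neither was called (adjusted p = 0.219 and 0.218). Both were called with the array numbers as pairs (adjusted p = 0.0398 and 0.0389; 15.5% and 16.4% of all genes called there), and the second also without U937 DMSO array 3 (2.58, adjusted p = 0.0167). Without the pair numbered 2 the second was 1.14 (adjusted p = 0.632). In order of mean, HMOX1 stood at 4.85 and 4.92 in THP-1 and HL60 with DMSO, 7.31 in U937 with DMSO, 7.48 in HL60 with PMA, 8.07 in U937 with PMA and 9.21 in THP-1 with PMA. The THP-1 and HL60 DMSO groups overlapped and lay below all the others, and each of the other 4 groups overlapped its neighbour.

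NQO1, a quinone reductase and a standard readout of NRF2, rose in HL60 and THP-1. In HL60 it went from 7.13, 5.92 and 5.67 to 8.58, 7.43 and 7.22. All PMA arrays were above all DMSO arrays, although the arrays numbered 1 were high in both groups. The change was 1.51 ± 0.49 (2.84-fold, limma, adjusted p = 0.0341), and the same-numbered pairs differed by 1.46, 1.51 and 1.55. In THP-1 it went from 8.98, 9.17 and 7.81 to 10.26, 10.38 and 9.71, a change of 1.46 ± 0.49 (2.76-fold, adjusted p = 0.0411). All 9 probe sets had higher means with PMA in both lines, by 1.17 to 2.02 and by 0.88 to 1.95.

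The unpaired calls on NQO1 were fragile. In HL60 the call was lost without DMSO array 2, DMSO array 3 or PMA array 1 (adjusted p = 0.124, 0.135 and 0.163) and with the line fitted alone (adjusted p = 0.0619). In THP-1 it was lost without DMSO array 1 or 3 or PMA array 1 or 2 (adjusted p 0.0582 to 0.167), and in both lines with the median of probe sets. In U937 NQO1 read 10.47, 10.54 and 8.89 with DMSO and 10.91, 9.93 and 10.18 with PMA. These overlap, and the change of 0.37 (-0.67 to 1.41) was not called (adjusted p = 0.771). Without the pair numbered 2 it was 0.86, called with the array numbers as pairs (adjusted p = 0.0106) and not without pairing (0.426).

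With DMSO, NQO1 was lowest in HL60. HL60 minus THP-1 was -2.41 ± 0.49 (adjusted p = 0.00191) and HL60 minus U937 -3.73 ± 0.49 (13.3-fold lower, adjusted p = 2.52e-05). THP-1 minus U937 was -1.32, which was not called (adjusted p = 0.0589) except without U937 DMSO array 3 (-1.85, adjusted p = 0.0102). In order of mean, NQO1 stood at 6.24 in HL60 with DMSO, 7.75 in HL60 with PMA, 8.65 in THP-1 with DMSO, 9.97 in U937 with DMSO, 10.12 in THP-1 with PMA and 10.34 in U937 with PMA. The HL60 DMSO arrays lay below all others, and every other group overlapped its neighbours in this order. No difference of PMA effects between lines was called for NQO1 with all arrays; the interval of HL60 minus THP-1 was -1.43 to 1.52. With the array numbers as pairs, in settings chosen after seeing the data, HL60 minus U937 was called after quantile normalization (0.88, adjusted p = 0.0221) and median centring (0.85, adjusted p = 0.0364), and so was THP-1 minus U937 (0.93 and 0.94, adjusted p = 0.0205 and 0.0253).

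**Figure D4:**
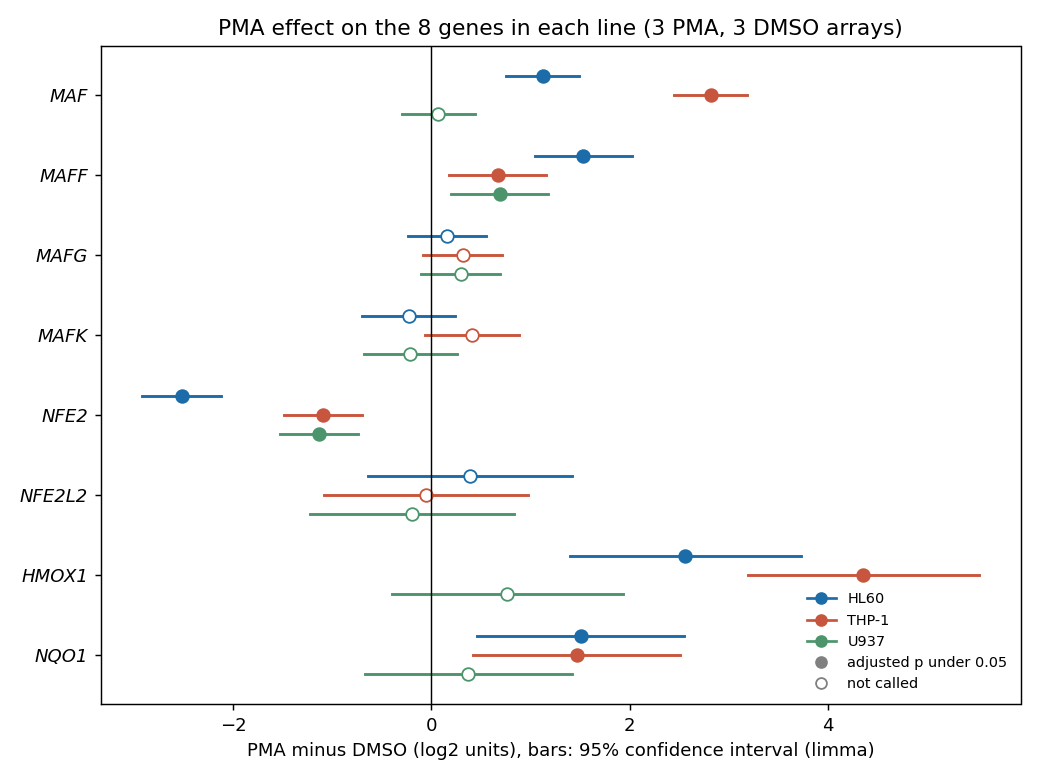
PMA minus DMSO (log2 units, horizontal axis) for the 8 genes in HL60, THP-1 and U937, with 95% confidence intervals from limma; filled points have an adjusted p under 0.05. NFE2 lies below 0 in all 3 lines, MAFF above 0 in all 3, and HMOX1 and MAF reach furthest in THP-1, at 4.36 and 2.82.

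Most partners and regulators of NRF2 were not called, like most of all genes. Of 15 measured, 1 rose in HL60, 3 rose and 1 fell in THP-1, and 1 rose and 2 fell in U937. The shares of all genes called higher and lower were 12.3% and 10.7% in HL60, 9.37% and 13.2% in THP-1, and 5.5% and 16.5% in U937. The list medians were 0.06, 0.11 and -0.19, beside 0.13, 0.04 and -0.07 over all genes. SQSTM1, the autophagy receptor p62 that binds KEAP1, rose in all 3: from 8.56 ± 0.14 (SD, n = 3) to 10.47 ± 0.22 in HL60, by 1.25 in THP-1 and by 1.13 in U937. BACH2 rose by 1.30 in THP-1, where PALB2 fell by 0.94. In U937 NFE2L3, another cap'n'collar factor, fell by 1.46 and PALB2 by 0.74. Neither fall was called without the U937 pair numbered 2. In that fit 3 of the 15 rose and 0 fell in U937, with a list median of 0.09, beside 0.07 over all genes. KEAP1 changed by -0.04, -0.51 and -0.35, and BACH1, the repressor of HMOX1, by 0.23, 0.42 and 0.18, none called. After quantile normalization the counts in THP-1 became 6 higher and 2 lower. MAFA and NRL, which are also large MAFs, were not called in any line.

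Genes that NRF2 is known to activate did not move one way. Among 19 glutathione and thioredoxin genes 2 rose and 2 fell in HL60 (median 0.15), 1 rose and 5 fell in THP-1 (-0.20), and 2 rose and 2 fell in U937 (-0.18). Over all genes 12.3% rose and 10.7% fell in HL60, 9.37% and 13.2% in THP-1, and 5.5% and 16.5% in U937. The medians over all genes were 0.13, 0.04 and -0.07. In HL60 the list thus lay near all genes. The same shares and medians stand beside the lists that follow. GCLC, which makes the glutathione precursor, rose in HL60 from 8.22 ± 0.61 to 11.21 ± 0.36 (change 2.99 ± 0.39, adjusted p = 1.39e-05), and SRXN1 rose there by 1.42. The gene that rose in THP-1 was also GCLC, by 1.26, named after its value was seen. SLC7A11, the cystine carrier, fell by 2.13 in THP-1 and rose by 1.74 in U937, and catalase (CAT) fell by 1.96, 1.76 and 1.71. GSTM3 fell by 1.82 in THP-1 and GSTP1 by 0.84 in U937. Without the U937 pair numbered 2 the U937 counts were 1 and 0, and with pairing 2 and 6.

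Among 17 genes of NADPH supply and detoxication, 5 rose and 3 fell in HL60 (median 0.21), 0 rose and 3 fell in THP-1 (-0.03), and 0 rose and 1 fell in U937 (-0.08). In HL60 CBR3, a carbonyl reductase, rose by 1.93 and PIR by 1.77, while TKT, of the pentose phosphate pathway, fell by 1.30. In THP-1 PIR fell by 1.34, the transporter ABCC4 by 1.24 and IDH1 by 0.99. ABCC4 fell by 1.95 in U937. With pairing 2 rose and 3 fell in THP-1.

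Genes of haem and iron handling, the setting in which HMOX1 acts, moved in both directions. Of 21, 5 rose and 3 fell in HL60 (median 0.34), 6 and 2 in THP-1 (0.36), and 3 and 4 in U937 (0.03); with pairing 9 rose and 5 fell in THP-1, and without the pair numbered 2, 3 rose and 1 fell in U937. FTH1, the ferritin heavy chain, rose by 3.09 ± 0.44, 2.62 ± 0.44 and 2.33 ± 0.44; it has near-identical copies in the genome, so its probe sets may not be its own. CD163, the haemoglobin scavenger receptor, rose by 3.21 in THP-1 and 3.33 in U937 and changed by 0.11 in HL60. SLC40A1, the iron exporter ferroportin, fell by 2.07 in THP-1 and 2.24 in U937. In HL60 LRP1 rose by 1.95 and ALAS1, the first enzyme of haem synthesis, by 1.56.

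**Figure D5:**
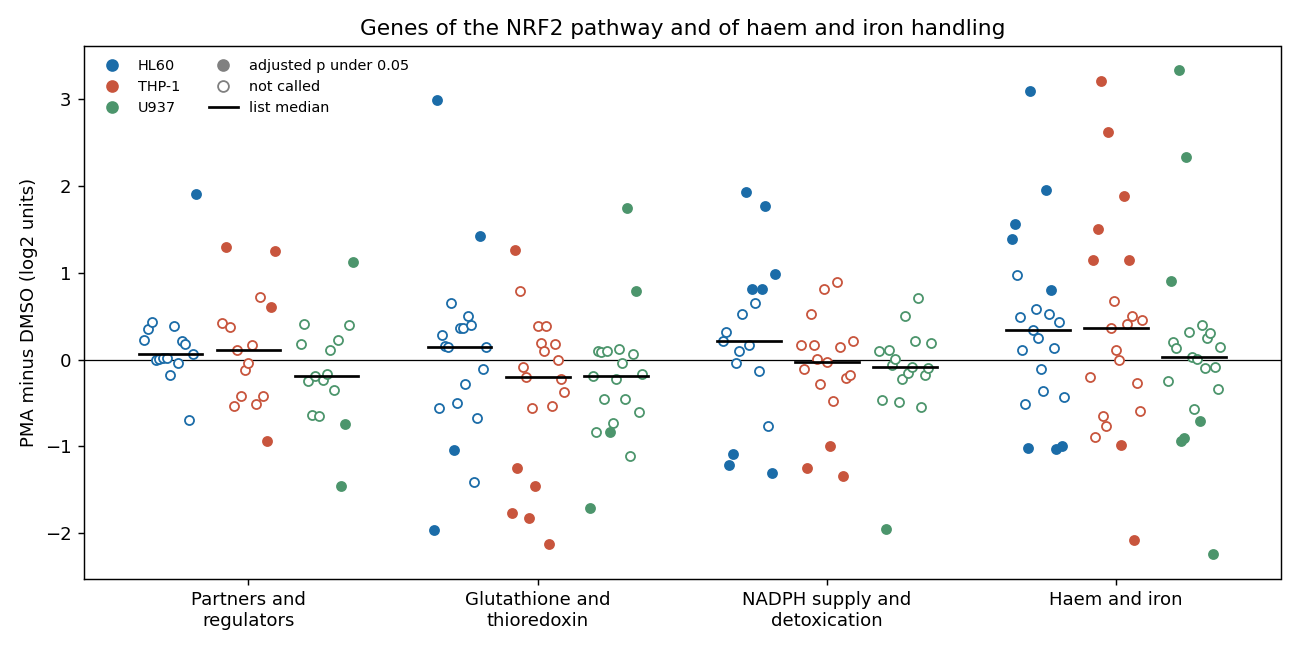
PMA minus DMSO (log2 units, vertical axis) for each measured gene of 4 lists in the 3 lines; filled points have an adjusted p under 0.05 and black bars are list medians. Called genes lie on both sides of 0 in each list, except for the partners and regulators in HL60 (1 higher) and NADPH supply and detoxication in THP-1 and U937 (3 and 1 lower).

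Macrophage genes and genes tied to NFE2 were set beside these factors. Of 16 macrophage genes, 5 rose in HL60, 7 in THP-1 and 7 in U937, and 0 fell; the medians were 0.23, 0.45 and 0.19. MERTK, a receptor for the uptake of dying cells, rose by 4.28 in HL60 and 4.39 in THP-1, and MMP9 by 2.92, 4.55 and 4.44. In U937, where MAF was not called, CD163 rose by 3.33 and VSIG4 by 3.87. CSF1R, the receptor for macrophage colony-stimulating factor, rose by 3.04 in HL60. Of 17 NFE2 targets and erythroid or megakaryocyte genes, 4 rose and 0 fell in HL60 and in THP-1, and 1 rose and 1 fell in U937; the medians were 0.05, 0.13 and 0.07. PPBP, a platelet chemokine, rose by 2.75, 2.19 and 3.46, ITGB3 by 1.97 in HL60 and 2.57 in THP-1, and TBXAS1, which makes thromboxane, by 1.78 and 1.34. RAB27B fell by 1.43 in U937, and the erythroid markers GATA1, KLF1 and HBB were not called in any line. Among 10 other stress genes 4, 2 and 2 rose and 0 fell: ATF3 by 3.34, 2.21 and 1.66, CDKN1A by 3.79, 3.17 and 3.36, and DDIT3 by 1.30 in HL60. After quantile normalization 1 of the 10 stress genes and 1 of the 17 NFE2 targets were called lower in HL60.

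The genes whose values ran most like each member over the 18 arrays were found among 11386 genes above the 30th percentile of mean level, by Pearson's r, which here also reflects what arrays of one line and one number share. For MAF they were ABCC3 and INA (0.96 and 0.96), and for MAFF SLC25A25 and CTNS (0.97 and 0.97). For MAFG they were SH3GLB2 and TAPBP (0.92 and 0.91), and for MAFK FBXO25 and BTN3A3 (0.89 and 0.87). NFE2 ran most like MSRB3 and QTGAL (0.95 and 0.95), and NFE2L2 like TXNDC9 and CIR (0.96 and 0.95). HMOX1 ran most like NPC2 and ETHE1 (0.93 and 0.93), and NQO1 like SLC52A2 and CD99 (0.97 and 0.97). None of the 8 genes had another of the 8 among its nearest 2.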

How the data were processed

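RNA from the 18 samples was hybridised to Affymetrix human exon 1.0 ST arrays. The authors deposited 1 table of log2 signals per probe set, made with Affymetrix Expression Console per the submitters' processing notes; how background was handled, the normalization and the genome build were not given in the sources used here, and no detection calls were used. Probe sets were named through the platform's gene table: 261273 of 287329 had 1 symbol, 9155 several and 16901 none. Symbols were updated through RefSeq (GRCh38.p14, names only): 14546 were current, 2260 updated and 135 kept, of 16941. Genes with at least 3 probe sets were tested.

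R 4.3.3 and limma 3.58.1 (lmFit, eBayes, 6 group means, 12 residual degrees of freedom, two-sided) gave PMA effects, their differences between lines and DMSO differences; diffSplice tested probe sets above the 30th percentile (5.17) in genes with at least 5, with calls needing a size of 1 or more and an adjusted p below 0.05. A log2 difference of 1 is a doubling of signal. The methods were tested on simulated data. The labels' array numbers were treated as pairs in an alternative fit: deviations from group means correlated at 0.28 to 0.79 in all 9 same-numbered DMSO and PMA pairs, and at -0.65 to 0.44 in the 18 others of the same line. Other alternatives were quantile normalization, median centring, probe-set medians, filters, single-line fits and left-out arrays.

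The members, gene lists and tests were chosen with earlier results of these data known. Named list genes are up to 3 per line of the largest change among those called without overlap; KEAP1, BACH1 and the defining markers were named for their role, and the called T, NK and B cell markers after their values were seen. Listed genes that were not among those tested were not analysed here.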

Additional observations from a re-analysis of the deposited data

Results flagged for a closer look

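The PMA effect differed between lines, by a limma test of the difference itself, for MAF, NFE2 and HMOX1. For MAF, HL60 minus THP-1 was -1.69, HL60 minus U937 was 1.06 and THP-1 minus U937 was 2.75. For NFE2, HL60 minus THP-1 was -1.42 and HL60 minus U937 was -1.39. For HMOX1, THP-1 minus U937 was 3.59, and 2.94 without the U937 pair numbered 2 (adjusted p = 0.0643).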

How the results depend on the processing

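Over 72 results on the 8 genes and 1128 alternatives, 1069 kept their side of the threshold, 34 lost a call and 25 gained one; 52 results never changed side. The sign turned in 74 of the 1069, over 18 results; 0 of these were called with all arrays or under the alternative. The causes of the changes below were not tested.

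Genes called (all 16267 tested) moved by over 1.5 times as follows. With the replicate block THP-1 had 5646 (3668 without it) and U937 5403 (3572). For HL60 minus THP-1 effects (1265) quantile normalization gave 2323, median centring 2161, the replicate block 2524 and the fit without both U937 arrays numbered 2 2081. HL60 minus U937 (1257) became 2666 with the replicate block. THP-1 minus U937 (774) became 1394, 1330 and 1649 with quantile normalization, centring and the replicate block. DMSO HL60 minus THP-1 (2698) became 4201, 4430 and, without the pair numbered 2, 4048; DMSO THP-1 minus U937 (4269) became 7078 without that pair.

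Of the 8 genes, U937 had 2 called; 1 with the line fitted alone, and, with the replicate block, 5 after quantile normalization, 5 after centring and 4 without the pair numbered 2. HL60 minus THP-1 had 2 called; 4 with quantile normalization, 4 with centring, and 5, 5 and 5 when the replicate block was added to quantile normalization, centring or leaving out the pair. HL60 minus U937 had 2; 1 with probe-set medians, 4 and 4 with the replicate block and quantile normalization or centring. DMSO HL60 minus U937 had 2; 4 with quantile normalization and 4 with centring. THP-1 minus U937 had 2, and 1 without the pair. The settings that combine the replicate block with another choice, and the alternatives for the gene lists, were chosen after seeing the data; the replicate block alone changed no other call on the 8 genes than the 2 on HMOX1 given in the report.

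Exon usage calls numbered 4 in HL60 (7 with the replicate block), 5 in THP-1 (8 by splicing index, 10 unfiltered, 10 with the replicate block) and 2 in U937 (1 by splicing index, 0 unfiltered). The filtered counts, here and with left-out arrays, include the probe sets that passed the filter through their PMA arrays.

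Leaving out 1 array gave 2576 to 3683 genes in THP-1 and 2568 to 4042 in U937, 887 to 1945 for HL60 minus U937 (highest without U937 PMA array 3), 560 to 1187 for THP-1 minus U937 and 2949 to 6683 for DMSO THP-1 minus U937 (both highest without U937 PMA array 2). It gave 3 to 4 of the 8 genes in THP-1 (5 with all arrays) and 1 to 2 in U937, and 1 to 5 and 0 to 3 exon usage calls in these lines. With 3 arrays a group, small changes in NFE2L2, HMOX1 and NQO1 were not detectable.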
